A study of Homo sapiens with 9 samples.

Results

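The 10 genes described here build, trim, tether or break down glycogen, and they were taken by symbol from a table of read counts over 38021 genes in 786-O cells. All 10 symbols were found in the table. GYS1 (glycogen synthase), GBE1 (branching enzyme), UGP2 (UDP-glucose pyrophosphorylase) and PGM1 (phosphoglucomutase) act in synthesis. PYGL, PYGB and PYGM are the liver, brain and muscle glycogen phosphorylases, which release glucose 1-phosphate from the chains. PPP1R3B and PPP1R3C carry protein phosphatase 1 to glycogen, where it acts on the synthase and the phosphorylases, and STBD1 ties glycogen to membranes and to the autophagy machinery.

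786-O is a line from a clear cell renal cell carcinoma (ccRCC) that lacks working VHL, so that HIF2α (encoded by EPAS1) stays on in ordinary culture. All 9 libraries came from 786-O cells grown in DMEM with serum that had been infected with a pLKO.1 lentivirus made in HEK293T cells and selected with puromycin, at 2.5 µg/mL for 1 week and at 1.25 µg/mL afterwards. The groups were shControl, a non-targeting shRNA, shARNT, against ARNT, and shBMAL1, against BMAL1 (listed under its older symbol ARNTL), with 3 libraries each. The study asked what the HIF partner ARNT and the clock protein BMAL1 each contribute to transcription in these cells. Each target was depleted with 1 shRNA sequence in a selected pool of cells, so an effect of the target and an effect of that sequence or pool cannot be told apart. The labels call the replicates biological but do not say whether they were separate infections or cultures, so the p-values measure the spread between these libraries, which may be technical.

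Glycogen is a branched store of glucose: synthase lengthens the chains from UDP-glucose, the branching enzyme adds branch points, and phosphorylase shortens the chains again. The pale cytoplasm that gives clear cell carcinoma its name comes from stored glycogen and lipid. In hypoxic cells several of these genes, GYS1, GBE1, PGM1 and PPP1R3C among them, are known targets of HIF, which binds DNA as a dimer with ARNT, while BMAL1 binds E-box sequences with its own partners.

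Promoter sequence is shown for 5 members, PYGL among them because the searched letters were missing. The others shown were called in at least 1 comparison below, as were PGM1 and UGP2, which are not printed. The sequences are the 250 bases before the annotated start in RefSeq (GRCh38.p14), written 5′ to 3′ on the gene's strand, and capitals mark ACGTG and GCGTG (core letters of HIF sites) or, on the other strand, CACGT and CACGC. The E-box CACGTG holds ACGTG on both strands.
GYS1 (chr19:48993310-48993559, minus strand): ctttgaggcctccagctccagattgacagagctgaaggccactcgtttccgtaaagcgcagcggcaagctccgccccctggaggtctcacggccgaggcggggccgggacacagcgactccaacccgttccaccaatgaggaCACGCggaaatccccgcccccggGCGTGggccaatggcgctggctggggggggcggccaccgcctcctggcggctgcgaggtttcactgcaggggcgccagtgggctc
GBE1 (chr3:81761646-81761895, minus strand): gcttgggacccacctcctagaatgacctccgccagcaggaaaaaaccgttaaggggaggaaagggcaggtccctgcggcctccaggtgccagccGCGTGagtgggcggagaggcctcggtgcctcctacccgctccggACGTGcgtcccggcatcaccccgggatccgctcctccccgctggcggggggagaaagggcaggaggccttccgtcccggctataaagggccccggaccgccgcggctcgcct
PYGL (chr14:50944484-50944733, minus strand): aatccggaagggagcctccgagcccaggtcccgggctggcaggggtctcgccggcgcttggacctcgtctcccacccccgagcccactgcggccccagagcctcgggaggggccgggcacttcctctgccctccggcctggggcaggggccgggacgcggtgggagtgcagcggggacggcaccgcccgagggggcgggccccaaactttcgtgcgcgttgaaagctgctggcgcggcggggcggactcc
PYGB (chr20:25247835-25248084, plus strand): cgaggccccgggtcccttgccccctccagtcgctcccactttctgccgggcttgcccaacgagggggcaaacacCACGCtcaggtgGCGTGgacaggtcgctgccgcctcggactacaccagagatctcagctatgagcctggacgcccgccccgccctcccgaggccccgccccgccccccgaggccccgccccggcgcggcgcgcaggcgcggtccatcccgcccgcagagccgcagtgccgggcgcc
PPP1R3C (chr10:91633072-91633321, minus strand): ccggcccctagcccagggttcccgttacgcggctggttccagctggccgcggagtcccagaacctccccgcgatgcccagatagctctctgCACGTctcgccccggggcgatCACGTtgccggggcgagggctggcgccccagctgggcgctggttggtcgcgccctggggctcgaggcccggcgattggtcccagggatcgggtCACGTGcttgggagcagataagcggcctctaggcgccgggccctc
Of the 10 members, 8 had a RefSeq promoter in the table used, with 11 promoters among them (PYGM and PPP1R3B had none there). In windows of 300 bases (250 before and 50 after the start), searched on both strands, ACGTG was found in 4 of the 11 promoters, from 4 members, and in 21.4% of all 35116 RefSeq promoter windows. GCGTG was found in 7 of the 11, from 6 members, and in 36.5% of all windows. PYGL was the member with neither among those searched. PPP1R3C, with 4 matches to ACGTG, was also the member searched that held the full E-box. That E-box starts 45 bases before its start site, and CACGTG stands in 7.26% of all windows. The GBE1 window held GCGTG also at position 14 after the start and the PYGB window at position 41, beyond the printed stretches. These matches describe letters in the reference and were not tested for binding.

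The libraries held between 33793045 and 35444735 reads each. The targeted transcripts were lower under their own shRNA: ARNT ranged from 2187 to 2551 normalised counts (counts divided by the size factor of the library) in shControl and from 1199 to 1239 in shARNT, and ARNTL from 735 to 797 in shControl and from 292 to 346 in shBMAL1. Each was also called lower, by less, under the other shRNA: ARNTL at 83.4% of shControl in shARNT (DESeq2 adjusted p = 0.0294) and ARNT at 85.5% in shBMAL1 (adjusted p = 0.0187). All 8 markers of a renal carcinoma line were present in every group. Most markers of other cell types were at or near 0, with exceptions. None of 3 endothelial markers averaged over 10 normalised counts in any group. Of 5 leukocyte markers only CD68 did, at 7395 in shControl, 6999.8 with shARNT and 5991 with shBMAL1. Of 6 hepatocyte markers SERPINA1 was abundant, averaging 5560 normalised counts in shControl, 2489 with shARNT and 11192 with shBMAL1, and CYP3A4 averaged 11.8 in shControl, while ALB, TTR, APOA1 and APOB were at or near 0. Of 4 brain markers SNAP25 averaged 87.5, 91.1 and 102, GFAP 11.4, 8.19 and 9.27, and RBFOX3 4.35, 7.21 and 10.9 in the same order of groups. The share of mitochondrial reads was 5.49 to 7.18% in shControl, 7.64 to 8.79% in shARNT and 8.77 to 9.73% in shBMAL1, higher in every knockdown library than in shControl, and its part in the differences below was not tested.

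The 2 abundant phosphorylases were lower in each knockdown, with PYGL at 59.9% of shControl in shARNT and at 51.1% in shBMAL1, and PYGB at 90.2% and 54.6%, while GBE1 was higher in each. In shARNT, 6 of the 9 members tested were called, 4 lower (GYS1, PYGL, PYGB and PPP1R3B) and 2 higher (GBE1 and UGP2), at an adjusted p under 0.1 (DESeq2, adjusted over all genes tested). Of all genes tested in that comparison 35.4% were called, 19.0% lower and 16.5% higher. In shBMAL1, 6 of 10 were called, 3 lower (GYS1, PYGL and PYGB) and 3 higher (GBE1, PGM1 and PPP1R3C), against 36.8% of all genes, 19.4% lower and 17.4% higher. The knockdowns share their control libraries, so they were also compared directly. In shBMAL1 against shARNT, 6 of 10 members were called, 2 lower (PYGL and PYGB) and 4 higher (GBE1, PGM1, PYGM and PPP1R3C), with 35.3% of all genes called, 18.0% lower and 17.3% higher. The median log2 fold change of the tested members was −0.11 in shARNT, 0.03 in shBMAL1 and 0.15 in the direct comparison, beside 0.00, 0.02 and 0.01 over all genes tested. With the sign left aside, the median change of the members was 0.17, 0.35 and 0.24, beside 0.18, 0.29 and 0.25 over all genes tested. The sizes of change were thus near those of all genes. The shares called were not matched for the read level of the genes.

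**Figure D1:**
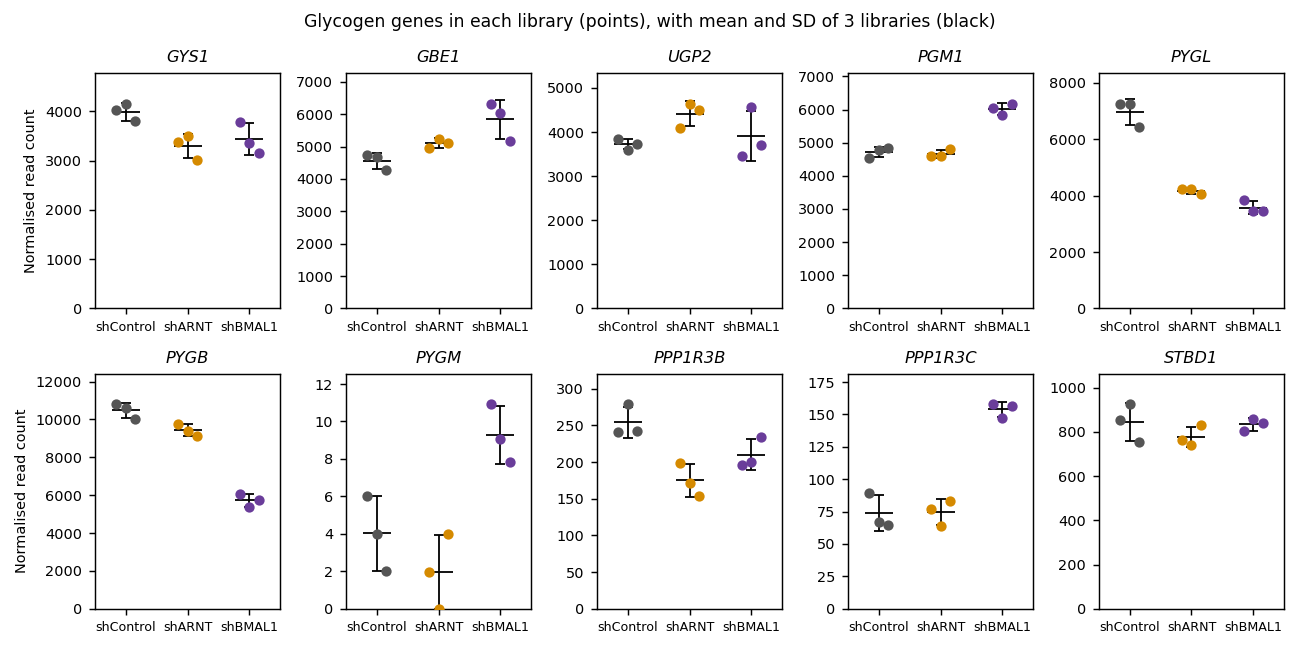
Normalised read count (each axis from 0) of the 10 glycogen genes in shControl, shARNT and shBMAL1. Points are the 3 libraries of a group, and the black bar and whiskers are their mean and SD. PYGL falls in both knockdowns, PYGB mainly in shBMAL1, and PPP1R3C stands apart in shBMAL1 at 147 to 158 normalised counts.

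Per kilobase of the longest transcript, the most abundant members in shControl were PYGB, at 2546 ± 94.7 normalised counts per kilobase (SD, n = 3), and PYGL, at 2494 ± 165, which did not differ beyond their spread at this length. PGM1 followed at 1776 ± 58.8, GBE1 at 1551 ± 84.7, GYS1 at 1119 ± 50.8 and UGP2 at 847 ± 26.6 per kilobase. STBD1 stood at 376 ± 38.6, PPP1R3B at 46.2 ± 3.86, PPP1R3C at 29.0 ± 5.41 and PYGM at 1.40 ± 0.701 per kilobase. The transcripts in use are not known from the table, and the places in this order depend on the length taken. With the mean length of coding transcripts PYGB stood at 4321 ± 161 per kilobase and PYGL at 2552 ± 169, well apart, and for UGP2 the longest transcript is 4397 bases and the mean of its coding transcripts 1153.

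GYS1, the rate-limiting enzyme of chain growth outside the liver, was lower in both knockdowns by a modest amount. Its normalised counts were 4032, 4154 and 3797 in shControl, 3378, 3497 and 3023.5 in shARNT, and 3794, 3359 and 3165 in shBMAL1. Every knockdown library lay below every shControl library, although the highest shBMAL1 library and the lowest shControl library were 3794 and 3797. The change was −0.27 on the log2 scale (SE 0.066, DESeq2 adjusted p = 0.000312) in shARNT and −0.22 (SE 0.079, adjusted p = 0.0224) in shBMAL1, and the call in shBMAL1 was lost without shBMAL1 replicate 3 (adjusted p = 0.141) or without shControl replicate 2 (adjusted p = 0.119). Between the knockdowns the difference was 0.06, with a 95% interval from −0.11 to 0.22.

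GBE1, which adds the branch points, was higher in both knockdowns. Its normalised counts were 4741, 4668 and 4278 in shControl, 4961, 5249 and 5126 in shARNT, and 6319.5, 6046 and 5171 in shBMAL1. The knockdown libraries all lay above the shControl libraries, and the shBMAL1 range overlapped that of shARNT. The change was 0.36 on the log2 scale (SE 0.082, DESeq2 adjusted p = 9.77e-05) in shBMAL1. In shARNT it was 0.17 (SE 0.058, adjusted p = 0.0167), a call lost without shARNT replicate 2 (adjusted p = 0.106) or shControl replicate 3 (adjusted p = 0.137). The direct difference of 0.19 (adjusted p = 0.0466) was lost in 4 of the 6 fits that left out a library, those without shBMAL1 replicate 1 (adjusted p = 0.185), shBMAL1 replicate 2 (0.165), shARNT replicate 1 (0.181) and shARNT replicate 3 (0.125).

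Of the enzymes that prepare the glucose donor, PGM1 rose in shBMAL1 and UGP2 in shARNT, and the direct comparison passed the test for PGM1. PGM1, which interconverts glucose 1-phosphate and glucose 6-phosphate, had 4539, 4790.3 and 4825 normalised counts in shControl, 4611, 4585 and 4799 in shARNT, and 6057, 5826 and 6169 in shBMAL1. The shBMAL1 libraries stood above all others, and the other groups overlapped. Its change was 0.35 on the log2 scale (SE 0.063, DESeq2 adjusted p = 4.22e-07) in shBMAL1 against shControl and 0.37 (adjusted p = 5.60e-08) against shARNT, while in shARNT it was −0.01, with an interval from −0.12 to 0.09. UGP2, which makes UDP-glucose from glucose 1-phosphate, had 3834, 3601 and 3738 normalised counts in shControl, 4099, 4639 and 4507 in shARNT, and 3466, 4563 and 3705 in shBMAL1. The shARNT libraries all lay above those of shControl, and the shBMAL1 libraries spanned both. UGP2 rose in shARNT, by 0.25 on the log2 scale (SE 0.062, adjusted p = 0.000423). In shBMAL1, where replicate 2 stood apart from the other libraries of its group, the log2 fold change was 0.07, with an interval from −0.11 to 0.25. The direct difference for UGP2 was −0.18 (adjusted p = 0.156), and without shBMAL1 replicate 2 it was −0.30 (adjusted p = 0.00208). It also passed the test with a correction for GC content (−0.18, adjusted p = 0.0660), alone or with the replicate block (adjusted p = 0.0447), and with the block alone (adjusted p = 0.0660). Exons of PGM1 and UGP2 overlap genes on the opposite strand (ITGB3BP and the small RNA ACA59), and although the library kit keeps strand, the setting used for counting is not given in the sources used here.

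PYGL, the phosphorylase best known from liver, showed the largest fall among the 9 members tested in shARNT. Its normalised counts were 7243, 7254 and 6447 in shControl, 4225, 4249 and 4051 in shARNT, and 3831, 3442 and 3446 in shBMAL1. The groups did not overlap, and shBMAL1 was lowest. In bulk RNA a change in the mix of cells and a change per cell cannot be told apart. The change was −0.74 on the log2 scale (SE 0.060, DESeq2 adjusted p = 4.29e-33) in shARNT and −0.97 (SE 0.075, adjusted p = 1.48e-36) in shBMAL1, with −0.23 (adjusted p = 0.00561) between the knockdowns. Over the fits that left out a library, the change stayed between −0.79 and −0.71 in shARNT and between −1.03 and −0.94 in shBMAL1. An unnamed gene on the opposite strand overlaps an exon of PYGL, as another does for PPP1R3B.

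PYGB, the phosphorylase best known from brain, was lower mainly in shBMAL1. Its normalised counts were 10803, 10587 and 10046 in shControl, 9759, 9403 and 9140.1 in shARNT, and 6084, 5388 and 5730.4 in shBMAL1. The groups did not overlap, though shARNT lay close under shControl. The log2 fold change in shBMAL1 was −0.87 (SE 0.067, DESeq2 adjusted p = 3.08e-36), and the direct difference from shARNT was −0.72 (adjusted p = 1.59e-25). In shARNT it was −0.15 (SE 0.051, adjusted p = 0.0159). That last call was lost with a correction for GC content (−0.10, adjusted p = 0.107), without shARNT replicate 3 (adjusted p = 0.112) and without shControl replicate 1 (adjusted p = 0.115). 

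PYGM, the muscle phosphorylase, was barely counted, with 6, 4 and 2 reads in shControl, 2, 0 and 4 in shARNT and 11, 9 and 8 in shBMAL1. DESeq2 left it out of the shARNT comparison by its filter on low counts, and in shBMAL1 against shControl its log2 fold change had an interval from −0.47 to 2.87. The direct comparison called it higher in shBMAL1 (DESeq2 adjusted p = 0.0855), but the call held in none of the 6 fits that left out a library: it was lost without shARNT replicate 1 (adjusted p = 0.179), and in the other 5 the filter on low counts left PYGM untested. It was also lost without independent filtering (adjusted p = 0.115) and with the replicate block (adjusted p = 0.136). Of 5 skeletal muscle markers, CKM, MYH7 and DES were at or near 0 in every group, ACTA1 averaged 38.2 normalised counts in shControl, 36.7 with shARNT and 40.7 with shBMAL1, and MYH2 averaged 2.35, 0.977 and 5.96, the same order of groups as PYGM. The summed muscle list ran from 33.99 to 48.5 in the shControl libraries, 28.8 to 52.0 in shARNT and 41.1 to 58.6 in shBMAL1, and its part in the PYGM counts was not tested.

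**Figure D2:**
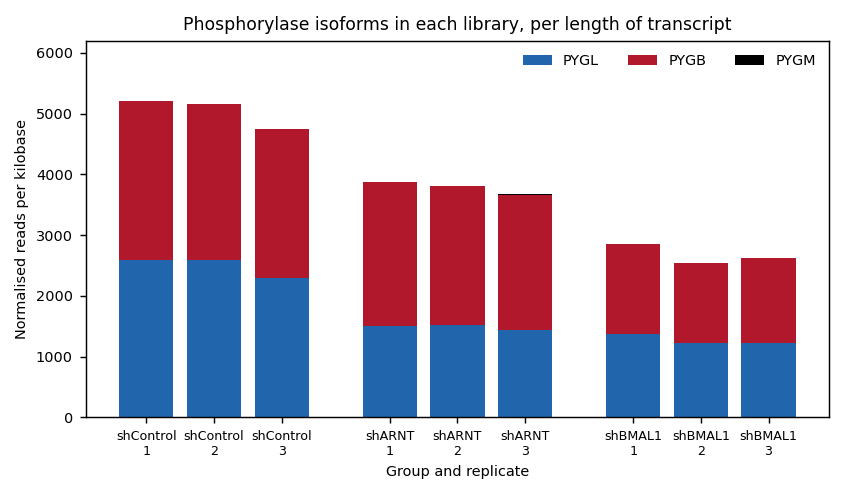
Level of the 3 phosphorylases, in normalised counts per kilobase of the longest transcript, stacked for each of the 9 libraries. The stack is lowest in shBMAL1 at 2673 on average, and PYGL takes a smaller part of it in shARNT, while PYGM is too low to be seen.

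Summed over the 3 isoforms, the phosphorylase level per kilobase was 5041 ± 258 in shControl, 3784 ± 107 with shARNT and 2673 ± 160 with shBMAL1 (SD, n = 3, no test). PYGL made up 49.4 ± 0.831% of that sum in shControl, 39.4 ± 0.515% with shARNT and 47.8 ± 0.781% with shBMAL1. The PYGL share was thus lower in every shARNT library (38.9 to 39.9%) than in any other (46.9 to 50.2%). PYGM was 0.121% of the sum in shBMAL1 and less elsewhere. The ratio of GBE1 to PYGL per kilobase was 0.612 to 0.632 in the shControl libraries, 1.12 to 1.20 in shARNT and 1.43 to 1.67 in shBMAL1. The ratio of GYS1 to PYGL per kilobase was 0.437 to 0.462, 0.585 to 0.645 and 0.720 to 0.777. Both ratios rested on the same PYGL counts, so they are a description and no separate evidence.

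**Figure D3:**
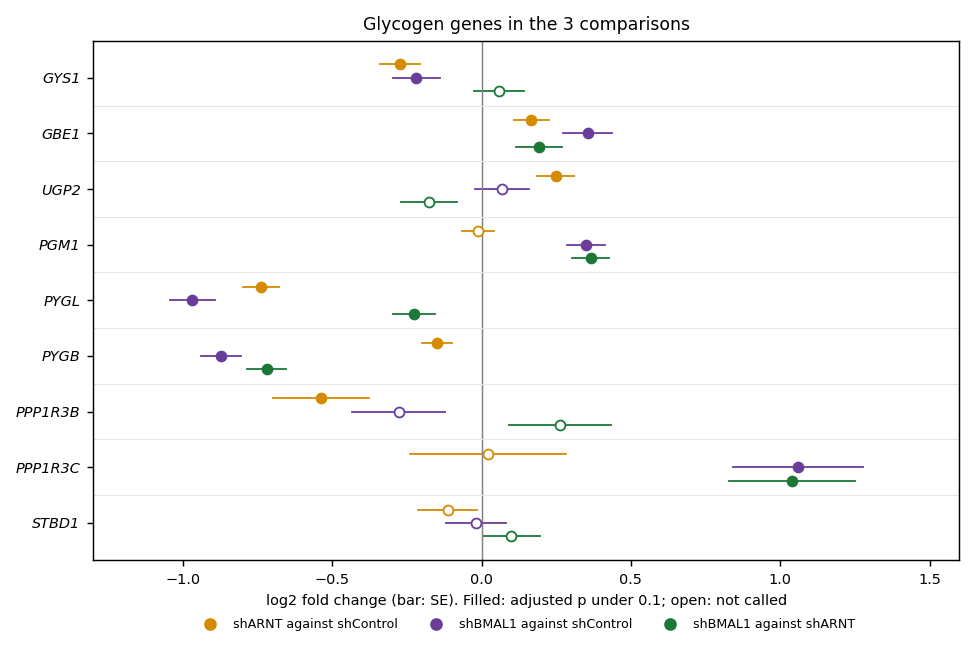
log2 fold change (DESeq2) of 9 members in shARNT against shControl (orange), shBMAL1 against shControl (purple) and shBMAL1 against shARNT (green), with bars of 1 SE and filled points for an adjusted p under 0.1. PYGM, with up to 11 reads in a library, is left out. PYGL lies to the left in all 3 comparisons, PPP1R3C and PGM1 to the right in both that involve shBMAL1.

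Of the targeting subunits of protein phosphatase 1, PPP1R3C rose in shBMAL1 against both other groups, and PPP1R3B fell in shARNT against shControl. PPP1R3C had 89.6, 67.0 and 64.7 normalised counts in shControl, 77.0, 63.8 and 83.5 in shARNT, and 158, 147 and 157 in shBMAL1. Its shBMAL1 libraries lay above all the others, and its change was 1.06 on the log2 scale (SE 0.22, DESeq2 adjusted p = 1.04e-05) against shControl and 1.04 (adjusted p = 8.90e-06) against shARNT. In shARNT it was 0.02, with an interval from −0.49 to 0.54. Among the 8 members with a promoter searched, PPP1R3C is the one with the E-box, and any part of that sequence in this change was not tested.

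PPP1R3B, the form best known from liver, had 241, 279 and 243 normalised counts in shControl, 199, 172 and 154 in shARNT, and 196, 201 and 234 in shBMAL1. The libraries of both knockdowns lay below those of shControl and overlapped each other. The shARNT group showed a change of −0.54 on the log2 scale (SE 0.16, DESeq2 adjusted p = 0.00448). In shBMAL1 it was −0.28, with an interval from −0.58 to 0.03 (adjusted p = 0.178), and edgeR gave an adjusted p of 0.0955. The direct comparison did not separate the knockdowns for PPP1R3B (0.26, interval −0.07 to 0.60, adjusted p = 0.267). STBD1 had 854, 926 and 753 normalised counts in shControl, 764, 742 and 829.9 in shARNT, and 804, 861 and 840.2 in shBMAL1. Its groups overlapped, and its intervals ran from −0.30 to 0.08 in shARNT and from −0.22 to 0.18 in shBMAL1. STBD1 shares exon sequence with the read-through gene FAM47E-STBD1 on the same strand, so reads of the 2 genes could be split between them.

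Around these members, 28 further genes of glycogen handling were examined, of which 26 had reads and PPP1R3A and G6PC had none. In shARNT, 6 of 20 tested were called, 4 lower and 2 higher, a count that fell to 2 without shARNT replicate 2 and to 3 without shControl replicate 1. In shBMAL1, 8 of 25 were called, 3 lower and 5 higher, and in the direct comparison 12 of 24, 4 lower and 8 higher. The median log2 fold change of the tested genes was 0.02, 0.08 and 0.01. The shares called, 30% and 32% against shControl and 50% in the direct comparison, stand beside the 35.4%, 36.8% and 35.3% of all genes given above. Over all genes, the calls in shARNT also fell when a library was left out, from 5374 to between 4174 and 4508.

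Phosphorylase kinase, which switches phosphorylase on, has alternative α subunits, and these differed. PHKA1, the form best known from muscle, had 2429, 2379 and 2071 normalised counts in shControl, 1290.1, 1342 and 1068 in shARNT, and 1731, 1607 and 1585 in shBMAL1. It was lower in both knockdowns without overlap, with changes of −0.89 on the log2 scale (SE 0.089, DESeq2 adjusted p = 1.35e-21) in shARNT and −0.48 (SE 0.084, adjusted p = 1.07e-07) in shBMAL1, so that shBMAL1 stood higher than shARNT (0.41, adjusted p = 0.000120). PHKA2, the form best known from liver, had 4012, 3579 and 3456 normalised counts in shControl, 4083, 3787 and 3677 in shARNT, and 5857, 5641 and 6183 in shBMAL1. The shBMAL1 libraries stood above all the others, a change of 0.68 on the log2 scale (SE 0.075, adjusted p = 5.09e-18), while in shARNT it was 0.07, with an interval from −0.07 to 0.20. All 9 values of PHKA2 were fractional in the table, and an antisense gene (PHKA2-AS1) overlaps it, so its level is less certain. The catalytic subunit gene PHKG1, which overlaps SUMF2 on the opposite strand, was also higher in shBMAL1, by 0.46 on the log2 scale against shControl (adjusted p = 0.000689) and by 0.56 against shARNT (adjusted p = 1.22e-05).

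GAA, the lysosomal enzyme that digests glycogen, had 1792, 1779 and 1903 normalised counts in shControl, 1754, 1639 and 1388 in shARNT, and 3048, 2949.8 and 2896 in shBMAL1. It rose in shBMAL1, by 0.70 on the log2 scale (SE 0.071, DESeq2 adjusted p = 3.18e-21). In shARNT its change of −0.19 was called (adjusted p = 0.0693), and the call was lost in 5 of the 6 fits that left out a library, at adjusted p from 0.109 to 0.421, and with the GC correction (0.246). The direct difference was 0.89 (adjusted p = 7.65e-23).

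PGM2, a phosphoglucomutase that acts on pentose phosphates, moved opposite to PGM1 in shBMAL1. Its normalised counts were 1939, 1847 and 1979 in shControl, 1649.7, 1668 and 1802 in shARNT, and 1248, 1317 and 1232 in shBMAL1, with no overlap between groups. The change was −0.60 on the log2 scale (SE 0.078, DESeq2 adjusted p = 1.76e-13) in shBMAL1 and −0.17 (adjusted p = 0.0492) in shARNT, where 4 of the 6 fits that left out a library lost the call (adjusted p from 0.153 to 0.187). SLC37A4, the transporter of glucose 6-phosphate into the endoplasmic reticulum, which overlaps TRAPPC4 on the opposite strand, was higher in shBMAL1 by 0.46 against shControl (adjusted p = 5.37e-06) and by 0.60 against shARNT (adjusted p = 8.66e-10).

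The other genes of this list that passed the test changed by less than 0.5 on the log2 scale in each comparison. Some genes left untested for low counts had larger fitted changes, such as PPP1R3G at −1.31 and GYG2 at 0.96 in shARNT, and GYG2 at 1.20 in shBMAL1 against shControl. Among the 3 largest changes of the genes tested in each comparison, those that did not pass were as follows. In shBMAL1, NHLRC1, the malin gene, had a log2 fold change of 1.04 against shControl (interval −0.80 to 2.88) and 1.19 against shARNT, and PPP1R3G 0.90 against shARNT (adjusted p = 0.653). In shARNT, EPM2A, the laforin gene, had 0.31 (interval −0.38 to 1.00) and PPP1R3F 0.26 (interval −0.04 to 0.55).

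**Figure D4:**
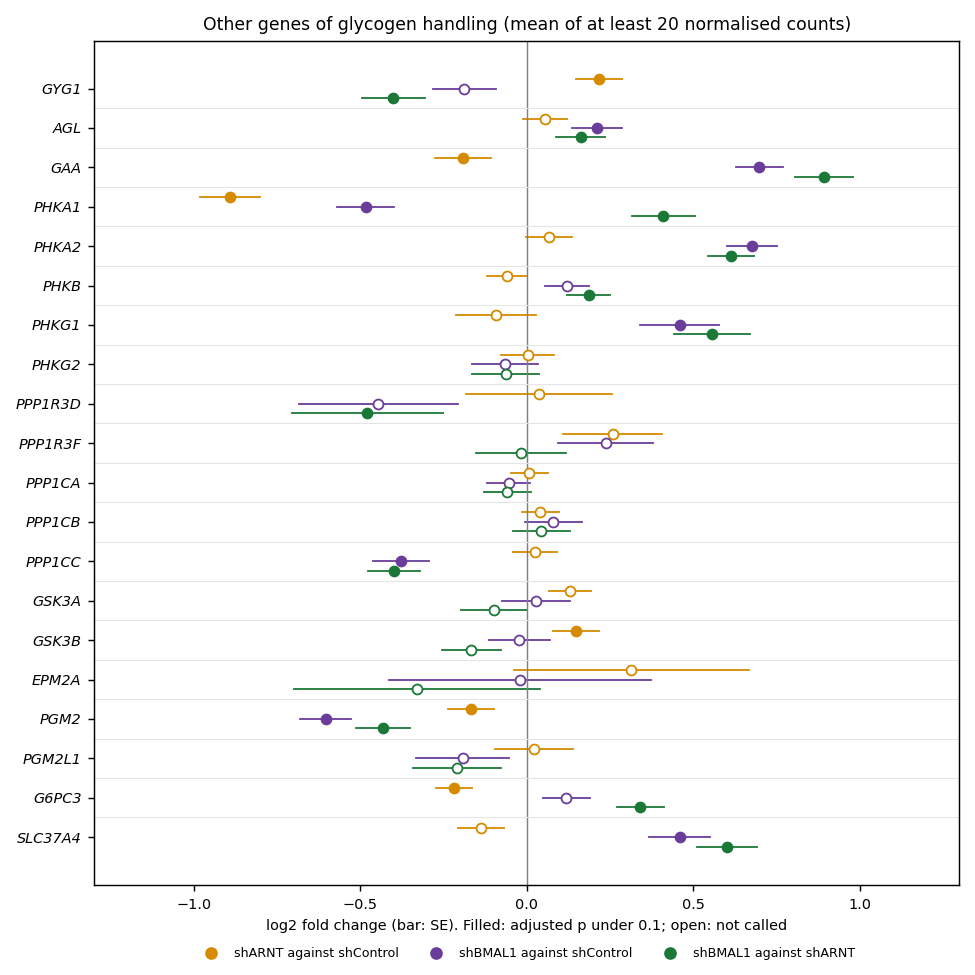
log2 fold change (DESeq2) of 20 further glycogen genes that averaged 20 or more normalised counts, in the same comparisons and colours as the plot of the members, with bars of 1 SE and filled points for an adjusted p under 0.1. PHKA1 lies to the left in both knockdowns against shControl, and PHKA2 and GAA to the right in both comparisons that involve shBMAL1.

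Genes whose levels most resembled 3 of the members over the 9 libraries were found among the 12918 genes that averaged 50 or more normalised counts, as Pearson's r of log2 counts. The points share the groups, so a like order of the 3 groups is enough for a high r, and no p is given. Nearest to GYS1 were SLC38A10 (r = 0.979), SEPN1 (0.968) and TDP1 (0.962). Among the nearest to PYGL were WHSC1 (0.989) and TRIM25 (0.988). Nearest to PPP1R3C were NXN (0.989), DENND1C (0.978) and MPI (0.975), and MPI, the mannose phosphate isomerase, averaged 741 normalised counts in shControl, 675 with shARNT and 1094 with shBMAL1.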

How the data were processed

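RNA of 786-O cells was sequenced as 9 DNBSEQ stranded mRNA libraries (shControl, shARNT and shBMAL1, 3 each). The deposited table holds estimated counts per gene, made by the authors: 6.14% of its nonzero values are fractional, and 0.009 stands for 0. The study's methods name GRCh37 with SeqMan NGen and ArrayStar, and the submitters' processing notes name hg38 and STAR; the table has no coordinates that would settle this. Here counts were rounded, 53 rows were added to rows of the same name, and 38021 genes were kept. Each comparison was fitted over its 6 libraries with DESeq2 1.42.0 (R 4.3.3), the Wald test, two-sided, with independent filtering and Benjamini-Hochberg adjustment at 0.1 over all genes. Intervals are 95%. Normalised counts used size factors over all 9 libraries. edgeR 4.0.16, other size factors, filters, thresholds, a replicate block, a GC correction and each library left out were alternatives, and the GC correction was added after seeing the data. The fits were tested on simulated data.

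Members and lists were chosen with earlier results of these data known. Named are all 10 members, and of the wider list the genes called at a change of at least 0.5 on the log2 scale. The 3 largest changes per comparison among the genes tested in that list are named too. The 3 genes most like GYS1, PYGL and PPP1R3C were to be named too, and 1 of them is not reported here. Gene loci and overlaps came from GENCODE on GRCh37 and promoters from RefSeq on GRCh38.p14. Depth was alike across libraries, and among the 10 members counting error is largest for PYGM.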

Additional observations from a re-analysis of the deposited data

How the results depend on the processing

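Of 510 checks of a member's change under an alternative, 499 gave a value. These were refits or, for the alternative thresholds, the main fit read again. Of the 499, 466 kept their side of the threshold, whether called or not, 28 lost the call and 5 gained it. Some of the 28 were lost only to the minimum change of 1.5-fold. No called change turned its sign. The other 11 were all of PYGM, which a filter on low counts left out, 7 of them in the direct comparison, where it had been called. With a minimum change of 1.5-fold, 1 of 9 members tested was called in shARNT, 3 of 10 in shBMAL1 and 3 of 10 in the direct comparison. Of the wider list 1 of 20, 3 of 25 and 3 of 24 were called. Of all genes tested it was 1200 of 15164, 2606 of 19036 and 2064 of 18181. Leaving out a library, the wider list in shARNT gave between 2 and 6 calls, with 2 without shARNT replicate 2 and 3 without shControl replicate 1. Calls over all genes fell too, from 5374 to between 4174 and 4508 in shARNT and from 7005 to between 5744 and 6347 in shBMAL1. In the direct comparison they fell from 6409 to between 5087 and 5928. Calls lost without a library were thus not particular to the glycogen genes. With lengths averaged over coding transcripts, PYGL made up 37.1% of the summed phosphorylase level in shControl, 28.2% in shARNT and 35.6% in shBMAL1, PYGB 62.9%, 71.8% and 64.4%, and PYGM 0.0920% in shBMAL1.

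The replicate numbers did not pair the libraries: same-numbered libraries correlated between −0.154 and 0.105 in their deviations from the group means. With the replicate block the wider list in shARNT gave 3 calls in place of 6; among members the PYGM call in the direct comparison was lost (adjusted p = 0.136) and UGP2 was called there (0.0660). Scaling to library totals moved the median of all genes by less than 0.1 on the log2 scale, but the share of lower among all calls went from 53.6 to 47.4% in shARNT, 52.8 to 46.5% in shBMAL1 and 51.0 to 48.8% in the direct comparison. PYGM and the low targeting subunits are limited by depth, and 1 shRNA per target limits every comparison.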
